A study of Mus musculus with 14 samples.

Results

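The comparison of 40Hz with 20Hz stimulation was made in the 5-month-old mice of the series. These are 7 of its 14 samples, taken by the age and the frequency in the labels: 4 mice at 40Hz and 3 mice at 20Hz. Each sample is RNA of visual cortex tissue from 1 male wild-type mouse, and the animal numbers in the labels show 7 separate animals. Per the series text, the wild types came from matings of 5xFAD mice, a line whose transgenes lead to amyloid plaques, and the background was B6SJL. Both groups share this origin, and neither carries the transgene by its label. The treatment was 1 h at 20Hz or 1 h at 40Hz. The labels do not say what kind of stimulus was given or how long after it the tissue was taken, and no sample is labelled unstimulated, so every difference here sets one frequency against the other and not against rest. Mice are called by the replicate numbers of the labels, which gives 20Hz mice 1, 2 and 3 and 40Hz mice 2, 3, 4 and 5. The other 7 samples, 4 at 20Hz and 3 at 40Hz, came from 4-month-old mice of the same kind and enter only where the ages are compared.

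Sensory flicker at gamma frequency is known to drive rhythmic firing in the visual cortex. Firing neurons switch on immediate-early genes within minutes, first transcription factors such as Fos, Npas4 and Egr1, and then effector genes such as Bdnf and Nptx2 whose proteins act at synapses. The title of the series places the work on microglia, cytokines and NF-kB. NF-kB proteins are transcription factors held in the cytoplasm by inhibitors such as the product of Nfkbia, released by signals from cytokine receptors, and they turn on cytokine, adhesion and survival genes.

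The deposited values are normalized read counts, that is, reads divided by 1 scaling factor per sample. The 5-month samples held 8784690 to 12698091 reads over the listed genes. Cortical identity was checked first: Slc17a7, the vesicular glutamate transporter of cortical excitatory neurons, ranged from 35073 to 41172 normalized counts in the 7 mice. The libraries stood apart in RNA of tissues next to the cortex. Choroid plexus genes were high in 20Hz mice 1 and 2, and granule cell genes of the dentate gyrus in 20Hz mouse 2 and 40Hz mouse 4. For C1ql2, a secreted synaptic protein of granule cells, the values were 354, 2287 and 326 normalized counts in 20Hz mice 1 to 3 and 173, 167, 1198 and 396 in 40Hz mice 2 to 5. For Dsp, which encodes the junction protein desmoplakin, they were 9.45, 273 and 2.29 at 20Hz and 0, 2.39, 77.6 and 4.66 at 40Hz. Values without single mice are given beside several of the results. Levels are not compared between genes here: genes with 1 transcript model in RefSeq had a median of 453.7 normalized counts and those with more had 81.2, and no label or note says whether reads shared between models were counted. In a bulk sample, fewer cells of a type and less RNA per cell cannot be told apart.

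No single gene passed the test between 40Hz and 20Hz at 5 months in limma, and the differences below are described by their values. Of 10710 genes tested, 0 passed an adjusted p of 0.05 in limma (0%), and the smallest adjusted p was 0.956. At an unadjusted p under 0.05 there were 266 genes higher at 40Hz (2.48% of those tested) and 215 lower (2.01%), 481 in all. All 40Hz mice lay above all 20Hz mice in 289 genes (2.7%) and below them in 264 genes (2.46%). By sign alone 5496 genes, 51.3%, were lower at 40Hz. The quasi-likelihood test of edgeR, run on the reads recovered from the values, called 0 genes as well, with 480 at an unadjusted p under 0.05. DESeq2 on the same reads called 12 genes, all lower at 40Hz, with 426 at an unadjusted p under 0.05, and those 12 are described with the choroid plexus. For a typical gene the 95% interval of the log2 difference reached 0.423 to either side, a 1.34-fold difference, and for 82.1% of genes the interval lay wholly within a 2-fold difference.

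Single mice moved these counts. Without 40Hz mouse 4, limma called 1 gene, Bspry, which encodes a protein with B-box and SPRY domains, at an adjusted p of 0.0267. Its values were 46.1, 63.9 and 52.7 normalized counts in 20Hz mice 1 to 3 and 9.78, 6.36, 41.8 and 6.98 in 40Hz mice 2 to 5. The groups did not overlap, and 40Hz mouse 4 lay far above the other 40Hz mice and just below the 20Hz mice. The 481 genes at an unadjusted p under 0.05 became 1069 without 20Hz mouse 2 and 771 without 40Hz mouse 4, against 293 without 40Hz mouse 2 and 320 without 40Hz mouse 3. Leaving out 20Hz mouse 2 and 40Hz mouse 4 together, the mice with the most granule cell RNA and a choice made after seeing the values, gave 84 calls in limma, 79 higher and 5 lower at 40Hz. Those higher included the corepressor gene Runx1t1 and the calcium-activated potassium channel gene Kcnma1, with log2 differences of 1.23 and 1.49 in those 5 mice. Of the 83 called genes found in RefSeq, 71 had more than 1 transcript model there, and 12 had 1. The part of the granule cell RNA in these calls was not tested.

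The 10 genes with the smallest p at 40Hz above 20Hz are given first. For Tbce, a folding factor of alpha-tubulin, the values were 482, 466 and 352 normalized counts in 20Hz mice 1 to 3 and 594, 643, 654 and 659.9 in 40Hz mice 2 to 5. For Srrm4, a splicing factor of neuronal microexons, they were 95.7, 82.4 and 82.4 at 20Hz and 158, 162, 122 and 135 at 40Hz, and for Kcnh6, a voltage-gated potassium channel gene, 109.8, 91.7 and 95 at 20Hz and 171, 182, 139.7 and 145 at 40Hz. In all 3 genes each 40Hz mouse lay above each 20Hz mouse. The log2 differences of 40Hz minus 20Hz, here and below with their standard errors, were 0.57 ± 0.13 for Tbce, 0.72 ± 0.17 for Srrm4 and 0.68 ± 0.16 for Kcnh6. Runx1t1 (0.89), the phospholipid flippase gene Atp10a (1.32), the golgin gene Trip11 (0.89), the F-box gene Fbxw25 (1.61), Tmem239 (0.79) and the myelin genes Mobp (0.40) and Gjc3 (0.34) made up the rest of the first 10. None of them passed in limma, where every adjusted p was at least 0.956. The groups did not overlap in any of the 10, which were picked by their p in this same comparison, and the same held for 289 genes (2.7%) in this direction.

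The genes with the smallest p in the other direction follow. Pcolce, which encodes an enhancer of procollagen processing, read 62.6, 97.2 and 57.3 normalized counts in 20Hz mice 1 to 3 and 38.2, 23.1, 20.3 and 25.6 in 40Hz mice 2 to 5. Npr1, the receptor gene for atrial natriuretic peptide, read 55.5, 74.1 and 51.5 at 20Hz and 31.1, 34.2, 33.4 and 30.3 at 40Hz. Aass, which encodes an enzyme of lysine breakdown, read 125, 187 and 139 at 20Hz and 85.3, 96.2, 82.4 and 80.3 at 40Hz. In each of these genes all 20Hz mice lay above all 40Hz mice, and 20Hz mouse 2 was the highest of the 7. Log2 differences were -1.40 ± 0.28 for Pcolce, -0.87 ± 0.22 for Npr1 and -0.78 ± 0.18 for Aass. With the choroid plexus level of each mouse as a covariate the differences of Pcolce, Npr1 and Aass were -0.93, -0.57 and -0.51. Also among them were the ciliary dynein genes Dnali1 and Dynlrb2, Bspry (-2.09), the membrane fusion gene Vamp8 (-0.86), the phosphodiesterase gene Smpdl3a (-0.49) and the cell adhesion gene Emb (-0.42).

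**Figure D1:**
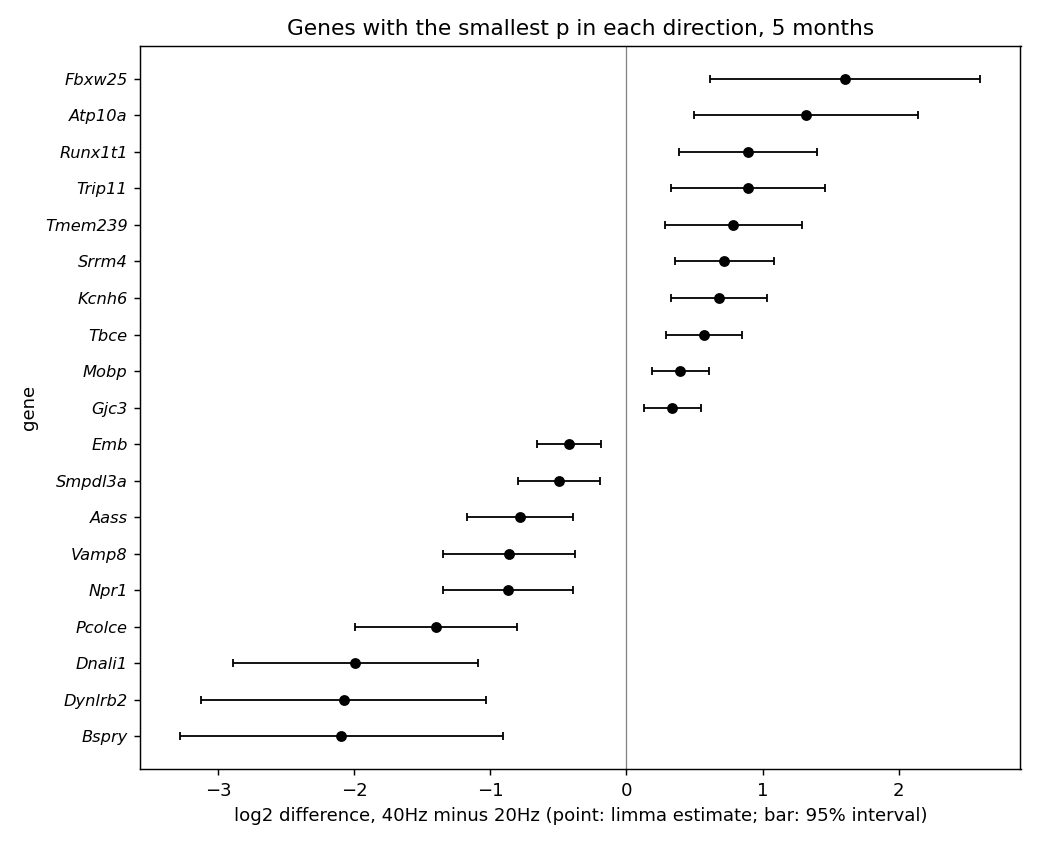
Log2 difference of 40Hz minus 20Hz at 5 months for 10 genes of smallest p higher at 40Hz and 9 lower, with points for the limma estimate and bars for its 95% interval. The intervals exclude 0 one gene at a time, while the smallest adjusted p over 10710 genes was 0.956.

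The choroid plexus, the epithelium in the brain ventricles that secretes cerebrospinal fluid, gave the widest differences in the table. All 15 of its tested markers were lower at 40Hz in sign, where 51.3% of all genes were, with a median log2 difference of -2.34 against -0.0067 over all genes. At an unadjusted p under 0.05 there were 6 of the 15, against 2.01% of all genes in that direction, and in 5 all 40Hz mice lay below all 20Hz mice, against 2.46%. Of 29 listed markers 15 were tested. F5, given below, passed the minimum mean for testing only through the 20Hz mice, so these counts partly follow from that filter. The list was chosen with earlier results of these data known. The counts also partly repeat the high levels of 20Hz mice 1 and 2 given above, and are not a separate test of frequency. Ttr, the thyroid hormone carrier that this epithelium secretes, read 2037, 13256 and 20.6 normalized counts in 20Hz mice 1 to 3 and 52.4, 11.1, 33.4 and 14 in 40Hz mice 2 to 5. Kl, which encodes the membrane protein klotho, read 1286, 7046 and 166 at 20Hz and 191, 207, 252 and 201 at 40Hz. Clic6, of the chloride channel family, read 998, 4695 and 44.7 at 20Hz and 40.9, 52.5, 51.3 and 32.6 at 40Hz. In all 3 genes 20Hz mouse 2 was highest and 20Hz mouse 1 next, while 20Hz mouse 3 lay among the 40Hz mice or below them. The log2 difference of Ttr was -5.12 ± 2.32, with a 95% interval of -11.02 to 0.78.

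Other choroid plexus genes kept 20Hz mouse 3 above the 40Hz mice, by smaller margins. Ecrg4, which encodes a secreted peptide, read 389.8, 1502 and 109.9 normalized counts in 20Hz mice 1 to 3 and 62.2, 64.4, 33.4 and 39.6 in 40Hz mice 2 to 5. F5, the gene of coagulation factor V, read 128, 715 and 11.5 at 20Hz and 8, 6.36, 8.36 and 3.49 at 40Hz. Sostdc1, which encodes a secreted antagonist of Wnt and BMP signals, read 469, 2159.9 and 37.8 at 20Hz and 32.9, 22.3, 21.5 and 31.4 at 40Hz. In these genes 20Hz mice 1 and 2 again stood far above the others, and the groups did not overlap, as also in the homeobox gene Msx1 (-0.98 ± 0.35) and the sulfate transporter gene Slc13a4 (-0.82 ± 0.33). Against the single 20Hz mouse 3, the median of the list was -0.37, and the differences of Ecrg4, F5 and Sostdc1 were -1.18, -0.78 and -0.49. Without 20Hz mouse 2 alone the median was -1.13, with 14 of 15 lower, and without 20Hz mouse 3 it was -3.33. At 4 months, in other mice, it was 0.11, with 8 markers higher and 7 lower.

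Ependymal cells line the ventricles and beat the fluid along with motile cilia, and their markers were low at 40Hz too. All 9 tested markers were lower in sign, with a median of -0.95. At an unadjusted p under 0.05 there were 5, against 2.01% of all genes in that direction, and in 3 the groups did not overlap, against 2.46%. Of 23 listed markers 9 were tested. Dynlrb2, under 10 in every 40Hz mouse, passed the minimum mean of 10 only through the 20Hz mice, so these counts partly follow from that filter. Dnali1, which encodes an axonemal dynein chain, read 30.7, 99.99 and 37.8 normalized counts in 20Hz mice 1 to 3 and 8, 10.3, 10.7 and 19.8 in 40Hz mice 2 to 5. Dynlrb2, of the dynein light chains, read 13, 44.4 and 37.8 at 20Hz and 5.33, 3.18, 8.36 and 8.15 at 40Hz. Foxj1, the transcription factor that directs motile ciliogenesis, read 15.4, 58.3 and 21.8 at 20Hz and 16, 6.36, 13.1 and 9.31 at 40Hz. In Dnali1 and Dynlrb2 every 20Hz mouse was above every 40Hz mouse, and 20Hz mouse 3 exceeded 20Hz mouse 1, so their order differed from that of the choroid plexus genes. Differences were -1.99 ± 0.42 for Dnali1, -2.08 ± 0.48 for Dynlrb2 and -1.27 ± 0.46 for Foxj1. Against 20Hz mouse 3 alone the Dnali1 and Dynlrb2 differences were -1.63 and -2.49, while the median of the 9 markers was -0.43, with 6 lower and 3 higher.

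DESeq2 called 8 of these genes at an adjusted p under 0.05 and all were lower at 40Hz: Ttr (-7.53), Clic6 (-5.44), F5 (-5.45), Sostdc1 (-5.05), the water channel gene Aqp1 (-5.04), Ecrg4 (-3.75), Dynlrb2 (-2.40) and Dnali1 (-2.24), on the log2 scale. Its remaining 4 calls were Pcolce (-1.43), 1700007K13Rik (-1.34), the sialyltransferase gene St6galnac2 (-1.33) and the growth factor gene Bmp6 (-0.93). None of the 12 passed in limma or edgeR.

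**Figure D2:**
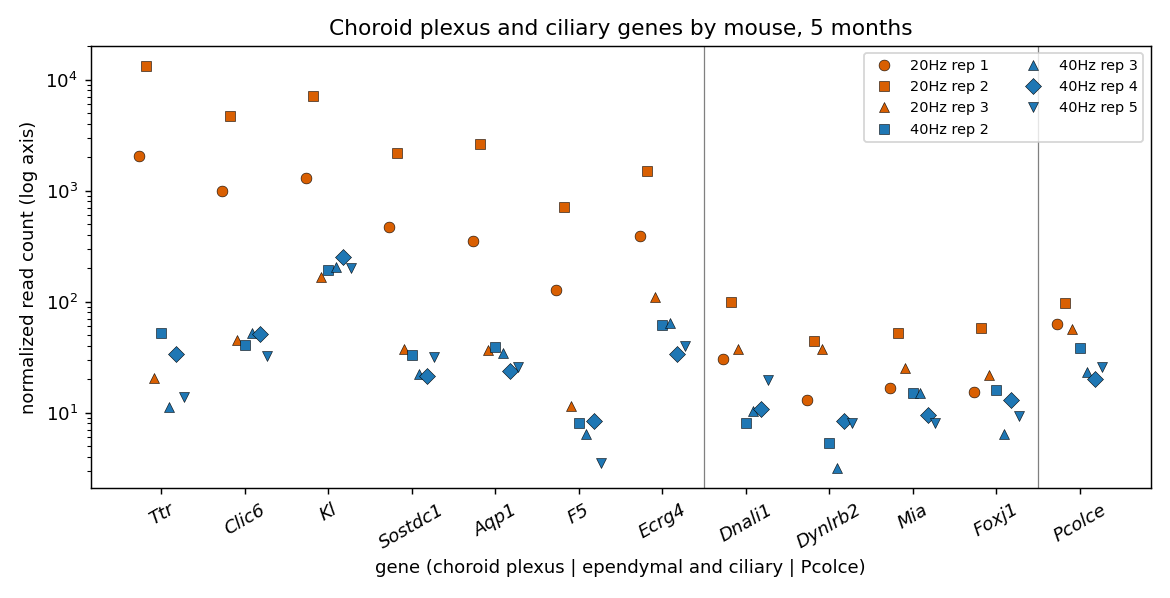
Normalized read counts (log axis) in each of the 7 mice for 7 choroid plexus genes, 4 ependymal and ciliary genes and Pcolce, with orange for 20Hz, blue for 40Hz and 1 symbol per replicate number. 20Hz mice 1 and 2 stand above the other mice in the choroid plexus genes, while in Dnali1 and Dynlrb2 all 3 orange points lie above the blue ones.

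Markers of the meninges, the membranes over the brain, were mixed. Of 23 tested, 17 were lower at 40Hz and 6 higher, with a median of -0.16, and 5 had an unadjusted p under 0.05, all lower, against 2.01% of all genes. Bmp6 read 442, 1029 and 764 normalized counts in 20Hz mice 1 to 3 and 444, 407, 329.5 and 389 in 40Hz mice 2 to 5. Igfbp2, which encodes a binding protein of insulin-like growth factors, read 149, 579.5 and 173 at 20Hz and 145, 112, 109 and 94.3 at 40Hz. In Igfbp2 and in Slc13a4, which is on the choroid plexus list too, the groups did not overlap, while in Bmp6 20Hz mouse 1 lay just inside the range of the 40Hz mice. The median was -0.61 against 20Hz mouse 3 alone and 0.08 without that mouse, with 15 higher and 8 lower. In the 4-month mice it was 0.51, with 22 of 23 higher at 40Hz.

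Genes induced by neuronal firing did not separate the frequencies at 5 months. Of 36 tested genes of the rapid wave, 16 were higher and 20 lower at 40Hz, with a median of -0.03, and of 29 delayed genes 7 were higher and 22 lower, with a median of -0.13. In the rapid wave 2 genes had an unadjusted p under 0.05, both higher, and in the delayed wave 1, which was lower. These shares were near the 4.49% of all genes. The rapid genes include Dusp6, given below, which passed the minimum mean for testing only through the 40Hz mice. The rapid count therefore partly follows from that filter. Fos read 1636, 835 and 489 normalized counts in 20Hz mice 1 to 3 and 655, 489.9, 1219 and 1246 in 40Hz mice 2 to 5. Arc, which encodes a protein of the postsynapse that carries RNA in capsid-like shells, read 829, 325 and 299 at 20Hz and 237, 177, 690.1 and 684 at 40Hz. Nptx2, a secreted pentraxin that clusters AMPA receptors, read 5690.4, 3037 and 2007 at 20Hz and 1713, 1588, 3754 and 4396 at 40Hz. The mice split within each frequency: 20Hz mouse 1 and 40Hz mice 4 and 5 were high, and 20Hz mouse 3 and 40Hz mice 2 and 3 were low. The labels give these 3 high mice the animal numbers 141, 142 and 143, and give 149, 119 and 121 to the 3 low ones, without naming a batch or a day. 20Hz mouse 2, with the next number, 144, was not among the high mice. It lay between the high and the low mice in all 3 genes, and near the low ones in Arc, at 325. Differences were -0.06 ± 0.54 for Fos, -0.20 ± 0.68 for Arc and -0.33 ± 0.55 for Nptx2, so that the interval for Fos ran from -1.40 to 1.27.

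Averaged over the 36 rapid genes, the log2 deviation from the mean of the 7 mice was 0.40 in 20Hz mouse 1, 0.20 in 40Hz mouse 4 and 0.28 in 40Hz mouse 5. It was -0.33 in 20Hz mouse 3 and -0.35 in 40Hz mouse 3, with -0.11 in 20Hz mouse 2 and -0.09 in 40Hz mouse 2. The span within 20Hz was wider than the gap between the means of the frequencies, -0.01 at 20Hz and 0.01 at 40Hz. The direction of the list turned with single mice: without 20Hz mouse 1 the rapid genes were 26 higher and 10 lower (median 0.25) and the delayed genes 17 higher and 12 lower (0.06), and without 40Hz mouse 3 the rapid genes were 25 higher and 11 lower (0.13). Without 40Hz mice 2 and 3 together, 29 of the 36 rapid and 23 of the 29 delayed genes were higher, with medians of 0.26 and 0.12.

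The factors at the head of the cascade followed that order to different degrees. Npas4, a neuron-specific factor that builds inhibitory synapses, read 467, 378 and 305 normalized counts in 20Hz mice 1 to 3 and 364, 362, 541 and 517 in 40Hz mice 2 to 5. Egr1, a zinc-finger factor, read 15427, 9847 and 12512 at 20Hz and 11033, 8789, 13633 and 22721 at 40Hz, and Nr4a1, an orphan nuclear receptor gene, read 1395, 931 and 694 at 20Hz and 948, 721, 1217 and 1444 at 40Hz. Bdnf, a growth factor that strengthens synapses, read 420.5, 383 and 199 at 20Hz and 212, 175, 359 and 520.2 at 40Hz. None of these 4 separated the frequencies, and Npas4 (0.22 ± 0.18) had the narrowest interval of them, -0.18 to 0.61. Fosb (-0.61 ± 0.44), Junb (-0.10 ± 0.35) and Egr2 (-0.06 ± 0.32) had wider intervals than Npas4. Among delayed genes, the opioid precursor gene Penk read 229, 239.8 and 141 at 20Hz and 70.2, 115, 138 and 180.4 at 40Hz, the neuritin gene Nrn1 1166, 1284 and 835 at 20Hz and 660.5, 853, 844 and 1064 at 40Hz and the receptor gene Gpr22 2129.5, 2871 and 2665 at 20Hz and 2269, 1954, 2247 and 2122 at 40Hz. Penk differed by -0.73 ± 0.30 on the log2 scale.

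Rapid genes with the smallest p departed from the order of Fos. Klf2, a zinc-finger factor also active in endothelium, read 289, 197 and 246 normalized counts in 20Hz mice 1 to 3 and 372, 329, 297 and 292 in 40Hz mice 2 to 5, and its groups did not overlap. Dusp6, a phosphatase of ERK, read 15.4, 7.41 and 3.44 at 20Hz and 20.4, 16.7, 13.1 and 19.8 at 40Hz, at counts close to the minimum. Its mean over the 20Hz mice lay below that minimum, so it was tested only through the 40Hz mice. Apold1, an immediate-early gene of endothelium, read 231, 139 and 174 at 20Hz and 295, 240.2, 183 and 235 at 40Hz. 40Hz mouse 2, low in Fos and Arc, was the highest of the 7 in all 3. Differences were 0.41 ± 0.16 for Klf2, 1.11 ± 0.45 for Dusp6 and 0.40 ± 0.20 for Apold1.

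Promoters of Fos and Npas4 are shown as examples of the rapid genes. CREB, a factor that couples calcium entry to such genes, is known to bind the cyclic AMP response element. The sequences are the 250 bases before the transcription start from RefSeq (build GRCm38.p6), read 5′ to 3′ on the strand of the gene. Capitals mark TGACGT, the shorter core of that element, or its reverse complement ACGTCA. The submitters' processing notes name GRCm39 for the data, so these coordinates are not those of the counts. Fos lies on the plus strand at chr12:85473640-85473889 and Npas4 on the minus strand at chr19:4989972-4990221.
Fos: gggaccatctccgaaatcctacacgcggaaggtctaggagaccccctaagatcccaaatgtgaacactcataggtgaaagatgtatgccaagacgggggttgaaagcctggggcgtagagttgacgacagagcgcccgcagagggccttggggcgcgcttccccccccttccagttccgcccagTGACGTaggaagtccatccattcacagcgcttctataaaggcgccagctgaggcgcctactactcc
Npas4: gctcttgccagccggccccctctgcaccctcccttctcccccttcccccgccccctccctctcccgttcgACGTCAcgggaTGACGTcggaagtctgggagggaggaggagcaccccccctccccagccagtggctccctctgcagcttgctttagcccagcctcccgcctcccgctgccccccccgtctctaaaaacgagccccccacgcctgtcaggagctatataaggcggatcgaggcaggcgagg
The Fos match began 66 bases before the start, and those of Npas4 began 180 and 169 bases before it. Of the 36 rapid genes 30 were found in the promoter table, and 13 of these, 43.3%, held the motif on either strand. Over all 27025 genes of that table, tested here or not, the share was 7.29%. Among the 13 were also Egr2, Egr4, Dusp1, Nr4a3, Homer1, Atf3 and Btg2. A match describes the letters in this window and is not a measured site, and its part in the differences between mice was not tested.

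**Figure D3:**
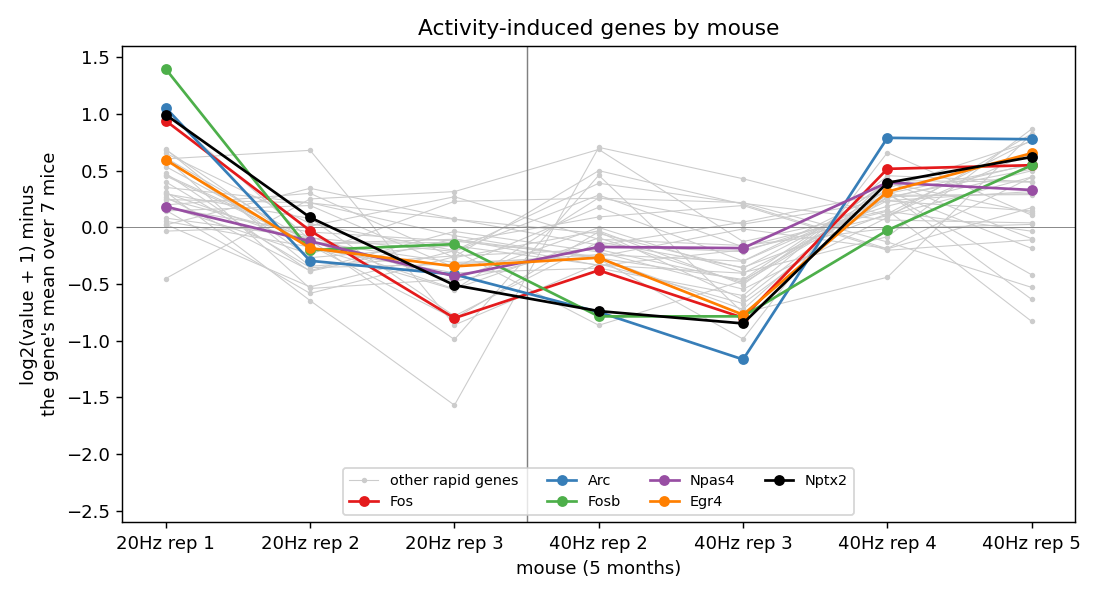
Log2(normalized count + 1) of each of the 36 rapid genes (grey, with 5 in colour) and of the delayed gene Nptx2 (black) in each mouse, as the deviation from the mean of that gene over the 7 mice. On average the rapid genes are high in 20Hz mouse 1 and 40Hz mice 4 and 5 and low in 20Hz mouse 3 and 40Hz mouse 3, on both sides of the grey line between the frequencies. Single lines, such as those of Klf2, Dusp6 and Apold1, depart from that order.

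No gene of the NF-kB pathway, named in the title of the series, passed the test at 5 months. Of 20 tested components 13 were higher and 7 lower at 40Hz, with a median of 0.06, and of 12 tested targets 8 were higher and 4 lower, with a median of 0.14. None of these 32 had an unadjusted p under 0.05, against 4.49% of all genes. Nfkbia, the inhibitor that NF-kB itself induces, read 725, 696 and 503 normalized counts in 20Hz mice 1 to 3 and 974, 718, 628 and 859 in 40Hz mice 2 to 5. Rel, which encodes the subunit c-Rel, read 281, 281 and 245 at 20Hz and 299.6, 324, 271 and 358 at 40Hz, and Nfkb1, the gene of the p50 subunit, 13, 17.6 and 10.3 at 20Hz and 11.6, 7.95, 15.5 and 9.31 at 40Hz. Ripk1, a kinase downstream of the TNF receptor, read 106, 97.2 and 77.9 at 20Hz and 149, 161, 101 and 95.4 at 40Hz. In each of these genes the ranges of the 2 frequencies crossed, and in Ripk1 the high values belonged to 40Hz mice 2 and 3. Differences were 0.31 ± 0.17 for Nfkbia, 0.21 ± 0.14 for Rel, -0.28 ± 0.39 for Nfkb1 and 0.41 ± 0.22 for Ripk1, and the interval for Nfkbia was -0.06 to 0.67.

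Targets of the pathway pointed both ways. Birc2, an inhibitor of apoptosis, was the 1 target of 12 whose groups did not overlap, against 2.7% of all genes in that direction. It read 20.1, 22.2 and 18.3 at 20Hz and 22.2, 23.1, 45.4 and 33.8 at 40Hz, and 20Hz mouse 2 tied with 40Hz mouse 2 to within a fraction of a count. Vcam1, an adhesion molecule of vessels, read 441, 770.3 and 609 at 20Hz and 521, 425, 559 and 466 at 40Hz, and Tnfaip3, a brake on NF-kB, 5.91, 22.2 and 11.5 at 20Hz and 16, 14.3, 17.9 and 11.6 at 40Hz. Differences were 0.54 ± 0.30 for Birc2, -0.27 ± 0.17 for Vcam1 and 0.33 ± 0.43 for Tnfaip3. Without 20Hz mouse 2 the median of the targets was 0.03, with 6 higher and 6 lower.

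Cytokine genes were few in the table. Of 38 cytokine, chemokine and growth factor genes listed, 12 reached the minimum of 10 normalized counts on average, 4 higher and 8 lower at 40Hz, with a median of -0.03, and without 20Hz mouse 3 they were 7 higher and 5 lower (0.02). Il1a, the interleukin-1 alpha gene, read 23.6, 26.8 and 25.2 normalized counts in 20Hz mice 1 to 3 and 24, 21.5, 20.3 and 9.31 in 40Hz mice 2 to 5. Cxcl14, a chemokine of neurons and other cells, read 13, 32.4 and 29.8 at 20Hz and 24, 31, 45.4 and 39.6 at 40Hz. Cx3cl1, the neuronal ligand of the microglial receptor Cx3cr1, read 45692, 34340 and 39874 at 20Hz and 29684, 36355, 39103 and 46051 at 40Hz, and Mif, a cytokine with broad expression, 3810.2, 2912 and 4016 at 20Hz and 3119, 3126, 3805 and 3131 at 40Hz. No cytokine separated the frequencies, and 40Hz mouse 5 held the lowest Il1a value. Differences were -0.48 ± 0.34 for Il1a, 0.53 ± 0.34 for Cxcl14, -0.09 ± 0.14 for Cx3cl1 and -0.11 ± 0.12 for Mif. Of 16 MAPK and JAK-STAT genes 8 were higher and 8 lower, with 0.55 ± 0.27 for the feedback inhibitor Socs2, 0.23 ± 0.15 for Jak2 and -0.16 ± 0.11 for Map2k1.

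Microglia, the immune cells of the brain, were near even in their receptor genes. Cx3cr1, the fractalkine receptor, read 1829.5, 2178 and 2516 normalized counts in 20Hz mice 1 to 3 and 2352, 2042, 2404 and 1872 in 40Hz mice 2 to 5, with an interval of -0.28 to 0.28 around a difference near 0. Csf1r, the receptor that microglia need to survive, read 1331, 1370.2 and 1574 at 20Hz and 1396, 1229.6, 1483 and 1245 at 40Hz. Of 16 tested homeostatic genes 4 were higher and 12 lower, with a median of -0.09, and of 16 genes of the disease-associated state 4 were higher and 12 lower, with a median of -0.16. Without 20Hz mouse 3 the homeostatic genes were 10 higher and 6 lower, with a median of 0.02. Ctsd, a lysosomal protease gene, read 9209, 12019 and 9616 at 20Hz and 8002, 7548, 8862 and 7721 at 40Hz, with no overlap between the groups and a difference of -0.35 ± 0.11. Cd52, a surface antigen of immune cells, read 41.3, 27.8 and 41.2 at 20Hz and 45.3, 9.54, 8.36 and 23.3 at 40Hz, with 40Hz mouse 2 above all 20Hz mice and a difference of -1.03 ± 0.50. Sall1, a transcription factor of microglial identity, went the other way, with 16.5, 43.5 and 21.8 at 20Hz and 52.4, 32.6, 41.8 and 44.2 at 40Hz and 0.73 ± 0.32. P2ry12, a purine receptor that marks microglia, lay below the minimum at 1.59 to 10.7, a range that is not read as low expression, for want of the counting method. Complement and phagocytosis genes were 7 higher and 5 lower, with a median of 0.05, and single mice turned them: 4 higher and 8 lower (-0.20) without 20Hz mouse 1, 5 and 7 (-0.08) without 20Hz mouse 2, 10 and 2 (0.16) without 20Hz mouse 3, and 3 and 9 (-0.38) against 20Hz mouse 3 alone. The phagocytic receptor gene Mertk read 1008, 982 and 807 at 20Hz and 1270.3, 1149, 995 and 1096 at 40Hz. Interferon-stimulated genes were 7 higher and 11 lower, and 10 higher and 8 lower without 20Hz mouse 3, with 0.40 ± 0.20 for Ifit1 and -0.44 ± 0.18 for Irf3, in both of which the groups did not overlap.

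Oligodendrocytes wrap axons in myelin, and 13 of 16 tested myelin genes were higher at 40Hz, 5 of them at an unadjusted p under 0.05 against 2.48% of all genes in that direction, though the median was only 0.07. Mobp, a protein of compact myelin, read 7062, 7660 and 7647 normalized counts in 20Hz mice 1 to 3 and 8731, 9604, 11075 and 9950.4 in 40Hz mice 2 to 5. Cnp, an enzyme of non-compact myelin, read 1078, 1275 and 1452 at 20Hz and 1517, 1692, 1699 and 1696 at 40Hz. Cldn11, which seals the myelin sheath with tight junctions, read 4962, 5203 and 7247 at 20Hz and 7069.6, 7632, 7776 and 7305 at 40Hz. In Mobp and Cnp the groups did not overlap, and in Cldn11 20Hz mouse 3 lay inside the 40Hz range. Differences were 0.40 ± 0.10 for Mobp, 0.39 ± 0.12 for Cnp, 0.38 ± 0.12 for Cldn11, 0.36 ± 0.16 for the surface glycoprotein gene Mog and 0.34 ± 0.15 for Ugt8a, an enzyme of myelin lipids. Mbp, the main protein of the cytoplasmic myelin face, read 7560.1, 5862 and 6432 at 20Hz and 6106, 6274, 6375 and 8335 at 40Hz, and its difference was 0.03 ± 0.12. Against 20Hz mouse 3 alone the median was -0.12, with 6 higher and 10 lower, and without that mouse it was 0.32, with all 16 higher. Without 20Hz mouse 1 the genes were 8 higher and 8 lower, and without 20Hz mouse 2 they were 10 higher and 6 lower. At 4 months 15 of the 16 were lower at 40Hz, with a median of -0.18.

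Other glia and vessels had few genes at an unadjusted p under 0.05. Of 19 tested astrocyte genes 9 were higher and 10 lower, with Gfap, the filament of reactive astrocytes, at 527, 688 and 708 at 20Hz and 608, 519, 728 and 459 at 40Hz and Gja1, the gap junction gene of astrocytes, at 449, 687 and 465 at 20Hz and 741, 689.5, 522 and 557 at 40Hz. Oligodendrocyte precursor genes were 10 higher and 2 lower, with a median of 0.13 and none at an unadjusted p under 0.05. That median was 0.05 without 20Hz mouse 1, 0.04 without 20Hz mouse 2, 0.06 without 40Hz mouse 2, 0.20 without 20Hz mouse 3 and -0.08, with 5 higher and 7 lower, against 20Hz mouse 3 alone. Endothelial genes were 9 higher and 10 lower, and 11 higher and 8 lower without 20Hz mouse 1 or without 20Hz mouse 2. Kdr, a receptor for vascular growth factor, read 255, 210.2 and 316 at 20Hz and 169.8, 206, 195 and 194 at 40Hz, with no overlap and a difference of -0.43 ± 0.16. Slc7a5, an amino acid transporter of the blood-brain barrier, read 3212, 2454 and 3062 at 20Hz and 3899.7, 3585, 2833 and 4186 at 40Hz, and 0.31 ± 0.14 was its difference. Of 7 pericyte and smooth muscle genes 6 were higher, with a median of 0.20 that was 0.06 without 20Hz mouse 2, 0.12 without 40Hz mouse 2 and 0.10 without 40Hz mouse 4, and with 0.27 ± 0.14 for the pericyte gene Rgs5. Haemoglobin, a sign of blood left in the tissue, varied within each group: Hba-a1 read 1598, 1598 and 2022 at 20Hz and 2146, 2349, 1793 and 1122 at 40Hz.

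Lists of cortical neuron markers had medians near 0, with wider single values. Upper-layer markers were 7 higher and 5 lower (0.02, range -0.16 to 0.61). Deep-layer markers were 12 higher and 9 lower (0.07, range -0.16 to 1.04). Hippocampal pyramidal and subicular markers were 8 higher and 5 lower, with a median of 0.12 that was -0.004 without 20Hz mouse 1. An unadjusted p under 0.05 was reached by 1 of 12 upper-layer and 2 of 13 hippocampal markers, all higher, against 2.48% of all genes. Slc17a7 differed by -0.08 ± 0.08 and Gad1, the gene of the enzyme that makes GABA, by 0.08 ± 0.19 from values of 129.9, 114 and 109.9 at 20Hz and 97.8, 122, 167 and 119.9 at 40Hz. Of 32 tested glutamate receptor and postsynaptic genes 21 were higher and 11 lower, with a median of 0.09, and of 15 GABA receptor genes 8 were higher and 7 lower. Without 20Hz mouse 2 the glutamate receptor and postsynaptic genes had a median of 0.14. Against 20Hz mouse 3 alone it was 0.24, with 25 higher and 7 lower. Without 20Hz mouse 3 the GABA receptor genes were 6 higher and 9 lower. Grik1, a kainate receptor subunit gene, read 9.45, 21.3 and 17.2 at 20Hz and 30.2, 49.3, 28.7 and 29.1 at 40Hz. Its groups did not overlap, and its difference was 1.09 ± 0.33. Of 33 genes of synaptic vesicles and release 25 were higher, with a median of 0.07 and 2 at an unadjusted p under 0.05, a share near the 4.49% of all genes. That median was 0.15 without 20Hz mouse 1, 0.11 without 40Hz mouse 4 and 0.03, with 19 higher and 14 lower, without 20Hz mouse 2. Snap25, a SNARE of the synaptic terminal, read 368, 337 and 289 at 20Hz and 432, 406, 418 and 428 at 40Hz, and Syt2, a calcium sensor of fast release, 57.9, 36.1 and 38.9 at 20Hz and 70.2, 97.8, 76.4 and 53.5 at 40Hz. In Snap25 the groups did not overlap, while in Syt2 20Hz mouse 1 exceeded 40Hz mouse 5. Differences were 0.35 ± 0.12 and 0.74 ± 0.25. Potassium and sodium channel genes were 18 higher and 17 lower, and 25 higher and 10 lower without 20Hz mouse 2, with 0.88 ± 0.37 for Kcnma1, -0.43 ± 0.18 for Kcnb2 and -0.24 ± 0.10 for Kcnk1.

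Genes of the circadian clock, a feedback loop in which ARNTL and its partners drive their own repressors, were mostly higher at 40Hz. Of 11 tested, 9 were higher and 2 lower, with a median of 0.29 against -0.0067 over all genes, and 2 had an unadjusted p under 0.05, both higher, against 2.48% of all genes. Arntl, the activator of the loop, read 118, 125 and 74.4 normalized counts in 20Hz mice 1 to 3 and 143, 158, 144 and 156 in 40Hz mice 2 to 5. Bhlhe41, a repressor of it, read 21.3, 39.8 and 34.4 at 20Hz and 37.3, 55.7, 46.6 and 46.6 at 40Hz. Tef, an output factor of the clock, read 765, 815 and 768 at 20Hz and 998, 1269, 784 and 844 at 40Hz, and Dbp, of the same family, 263, 189.8 and 254 at 20Hz and 272, 473, 258 and 206 at 40Hz. Each 40Hz mouse had more Arntl than each 20Hz mouse, 20Hz mouse 3 was lowest, and in the other 3 genes the groups overlapped. Arntl was the 1 clock gene with all 40Hz mice above all 20Hz mice, against 2.7% of all genes. In 1 clock gene not shown here all 40Hz mice lay below all 20Hz mice, against 2.46%. The lowest log2 difference of the list was -0.46. Differences were 0.54 ± 0.19 for Arntl, 0.57 ± 0.26 for Bhlhe41, 0.29 ± 0.15 for Tef and 0.30 ± 0.25 for Dbp. The median lay between 0.15 and 0.35 when any 1 mouse was left out, the lowest without 40Hz mouse 3, and was 0.04 at 4 months. The labels give no hour of tissue collection, and its part in these values was not tested.

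The upstream sequences of Bhlhe41 and Tef are given because these clock genes hold the E-box CACGTG, the motif that ARNTL and CLOCK are known to bind, and it is in capitals. Both come from RefSeq (GRCm38.p6), 250 bases before the start, 5′ to 3′ on the gene's strand. Bhlhe41 is on the minus strand at chr6:145865421-145865670, and Tef, for 1 of its 2 promoters, on the plus strand at chr15:81802423-81802672.
Bhlhe41: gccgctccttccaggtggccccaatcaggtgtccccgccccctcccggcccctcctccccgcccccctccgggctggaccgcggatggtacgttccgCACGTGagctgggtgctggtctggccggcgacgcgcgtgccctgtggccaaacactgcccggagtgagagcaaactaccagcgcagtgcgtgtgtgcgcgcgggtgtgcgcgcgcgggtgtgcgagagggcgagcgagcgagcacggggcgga
Tef: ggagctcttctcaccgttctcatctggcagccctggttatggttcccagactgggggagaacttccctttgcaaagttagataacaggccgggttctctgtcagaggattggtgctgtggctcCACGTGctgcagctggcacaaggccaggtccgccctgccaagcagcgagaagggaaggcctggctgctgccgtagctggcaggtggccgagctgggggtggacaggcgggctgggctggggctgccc
The E-box began 153 bases before the start of Bhlhe41 and 127 bases before that of Tef. They were 2 of the 9 clock genes found in the promoter table, 22.2%, against 6.86% of all genes of that table, tested here or not. The E-box is its own reverse complement and shares the letters ACGT with the motif shown for Fos.

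Stress and energy genes were examined beside the clock. Of 19 tested glucocorticoid-responsive genes 14 were higher, with a median of 0.21, and without 20Hz mouse 3 they were 12 higher and 7 lower, with a median of 0.04. Sult1a1, a sulfotransferase gene, read 165, 201 and 187 normalized counts in 20Hz mice 1 to 3 and 211, 220.3, 287 and 209 in 40Hz mice 2 to 5, and Pdk4, a kinase that shuts pyruvate out of mitochondria, 768, 809 and 782 at 20Hz and 684, 674, 586 and 712 at 40Hz. The groups did not overlap in either gene, and the differences of 0.32 ± 0.15 and -0.25 ± 0.11 had opposite signs. Hypoxia and glycolysis genes were 16 higher and 8 lower, with a median of 0.08 that was 0.03 without 20Hz mouse 2, 0.05 without 20Hz mouse 3 and 0.04 without 40Hz mouse 4. Ldha, of lactate dehydrogenase, read 33.1, 26.8 and 35.5 at 20Hz and 55.1, 40.6, 37 and 40.7 at 40Hz, and Slc2a1, the glucose transporter of the blood-brain barrier, 926, 511 and 514 at 20Hz and 1017, 797, 647 and 826 at 40Hz. The mean over this list was higher in each 40Hz mouse than in each 20Hz mouse. The means of the groups did not overlap in 3 of the 36 lists, while 5.16% of single genes did not overlap. The others were the choroid plexus and the ependymal list, both lower at 40Hz.

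Genes of energy production and protein synthesis were lower at 40Hz by small amounts and in nearly every member. Of 72 tested nuclear-encoded genes of the respiratory chain 64 were lower, with a median of -0.15, of 77 ribosomal protein genes 70, with -0.13, and of 23 chaperone genes 20, with -0.13. An unadjusted p under 0.05 was reached by 2, 1 and 2 of them, all lower, against 2.01% of all genes in that direction. Atp5o, a subunit of ATP synthase, read 1117, 959 and 1248 normalized counts in 20Hz mice 1 to 3 and 866, 800.1, 1088 and 872 in 40Hz mice 2 to 5. Rps14, of the small ribosomal subunit, read 2370.4, 1924 and 2815 at 20Hz and 1879, 1686, 2243 and 1693 at 40Hz. Hsp90b1, the chaperone of the endoplasmic reticulum, read 4566, 4779.9 and 5889 at 20Hz and 3825, 3636, 4361 and 4223 at 40Hz. In Atp5o and Rps14, 20Hz mouse 3 was highest, 40Hz mouse 3 lowest, and the groups overlapped, while in Hsp90b1 they did not. Differences were -0.29 ± 0.13 for Atp5o, -0.33 ± 0.14 for Rps14 and -0.34 ± 0.11 for Hsp90b1. Without 20Hz mouse 3 the ribosomal genes were 48 lower and 29 higher, with a median of -0.02, and the respiratory genes 55 lower and 17 higher, with -0.07. The chaperone genes were 16 lower and 7 higher without that mouse, with -0.04, and had a median of -0.04 without 40Hz mouse 3. In the other direction, without 20Hz mouse 2 the medians were -0.25 for ribosomal, -0.26 for respiratory and -0.23 for chaperone genes. At 4 months, in other mice, the direction was the same, with smaller medians. There 62 of the 72 respiratory genes were lower (-0.06), 61 of the 77 ribosomal genes (-0.06) and 20 of the 23 chaperone genes (-0.12). Members of each list share the mouse they are measured in, so their number does not make up for 3 mice against 4.

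A property of the gene models moved with these lists. Over all tested genes found in RefSeq, the 3529 with 1 transcript model had a median log2 difference of -0.05, and 64.2% of them were lower, while the 7058 with more than 1 had 0.03, and 45% were lower. All 45 ribosomal genes with 1 model were lower, and 25 of 32 with more. In the respiratory chain it was 38 of 39 and 26 of 33, and among chaperone genes 13 of 13 and 7 of 10. The myelin genes did not follow this: 1 of 7 with 1 model was lower (median 0.09), and 2 of 9 with more (0.03). The gap between the 2 classes, the median deviation of genes with 1 model minus that of genes with more, was 0.18 in 20Hz mouse 3, where the ribosomal mean was 0.30, and -0.10 in 40Hz mouse 3, where it was -0.21. It was 0.02 and -0.07 in 20Hz mice 1 and 2, and -0.06, 0.03 and -0.03 in 40Hz mice 2, 4 and 5. No label or processing note says how reads were assigned among transcript models, and the part of this property in the differences was not tested.

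**Figure D4:**
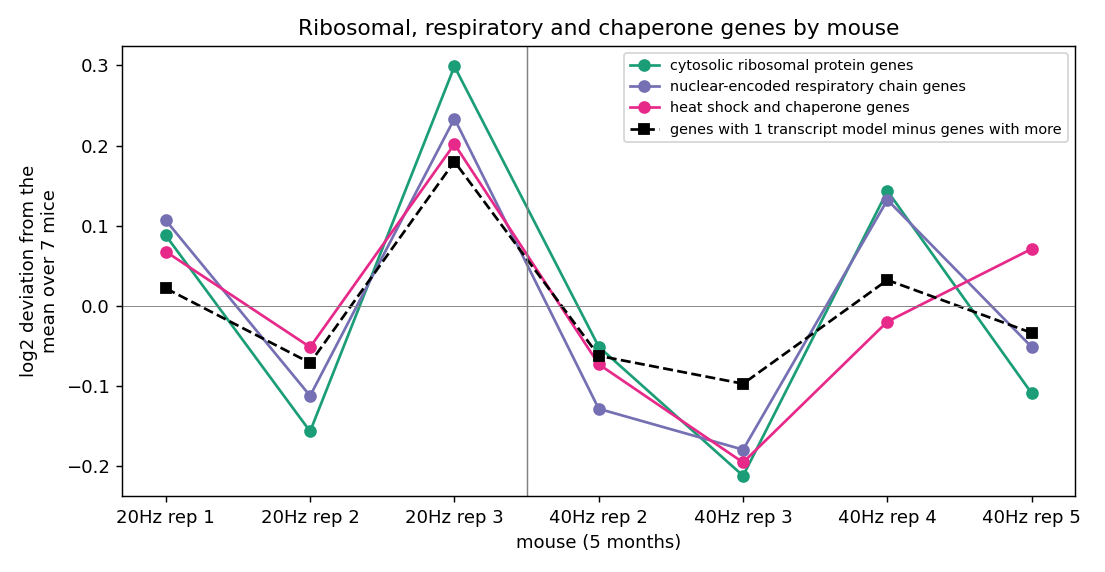
Mean log2 deviation of the ribosomal protein, respiratory chain and chaperone genes from their mean over the 7 mice, by mouse, with the gap between genes of 1 and of more transcript models as a dashed line. 20Hz mouse 3 is highest in all 4 lines, at 0.30 for the ribosomal genes, and 40Hz mouse 3 is lowest.

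The frequency difference at 5 months was set against that of the 4-month mice, which share no sample with it. In limma 0 of 10710 genes passed for the difference between the ages (0%), the smallest adjusted p was 0.861, and 406 genes (3.79%) had an unadjusted p under 0.05. The quasi-likelihood test of edgeR called 0 with 392 at an unadjusted p under 0.05, and DESeq2 called 4 with 375: Ttr, Ecrg4, Zic4 and Perp, all with the lower difference at 5 months. Zic4, a zinc-finger factor of thalamus and cerebellum, read 16.5, 20.4 and 19.5 normalized counts in 20Hz mice 1 to 3 and 15.1, 16.7, 11.9 and 10.5 in 40Hz mice 2 to 5, and at 4 months 1.18 to 6.96 at 20Hz and 17.4 to 40.8 at 40Hz. Perp, which encodes a membrane protein of junctions and of p53-driven cell death, read 428, 769 and 633 at 20Hz and 414, 558, 266 and 279 at 40Hz, and at 4 months 219 to 263 at 20Hz and 368 to 612 at 40Hz. For Zic4 the spread lay in the 4-month mice, and for Perp the sign turned between the ages. The 5-month minus 4-month values were -2.88 ± 0.62 for Zic4 and -1.72 ± 0.35 for Perp. Without 20Hz mouse 3 limma called 2 genes here, F5 and Sostdc1, and without 40Hz mice 2 and 3 together it called Perp and the ciliary gene Cfap74.

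The genes of smallest p in this comparison were named by the same kind of rule. Runx1t1, Gjc3, Cnp and the transcription factor gene Usf1 had the larger difference at 5 months, by 1.26 ± 0.30, 0.51 ± 0.13, 0.57 ± 0.17 and 1.86 ± 0.54. In the other direction, beside Zic4 and Perp, were Pcolce and the TLC domain gene Tlcd5, by -1.89 ± 0.45 and -2.0 ± 0.48. Of the 16 myelin genes 6 had an unadjusted p under 0.05 for this difference, against 3.79% of all genes, and so did 11 of 23 meningeal, 7 of 15 choroid plexus and 5 of 9 ependymal markers. Among the 36 rapid activity genes, 29 delayed genes, 20 NF-kB components, 12 NF-kB targets and 12 cytokines it was 0 in each list. Some choroid plexus and ependymal markers reached the minimum mean only through 20Hz mice of 5 months, so the counts for those lists partly follow from that filter. Choroid plexus levels differed widely between mice of the 20Hz group at 5 months, and their part in the other differences was not tested.

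**Figure D5:**
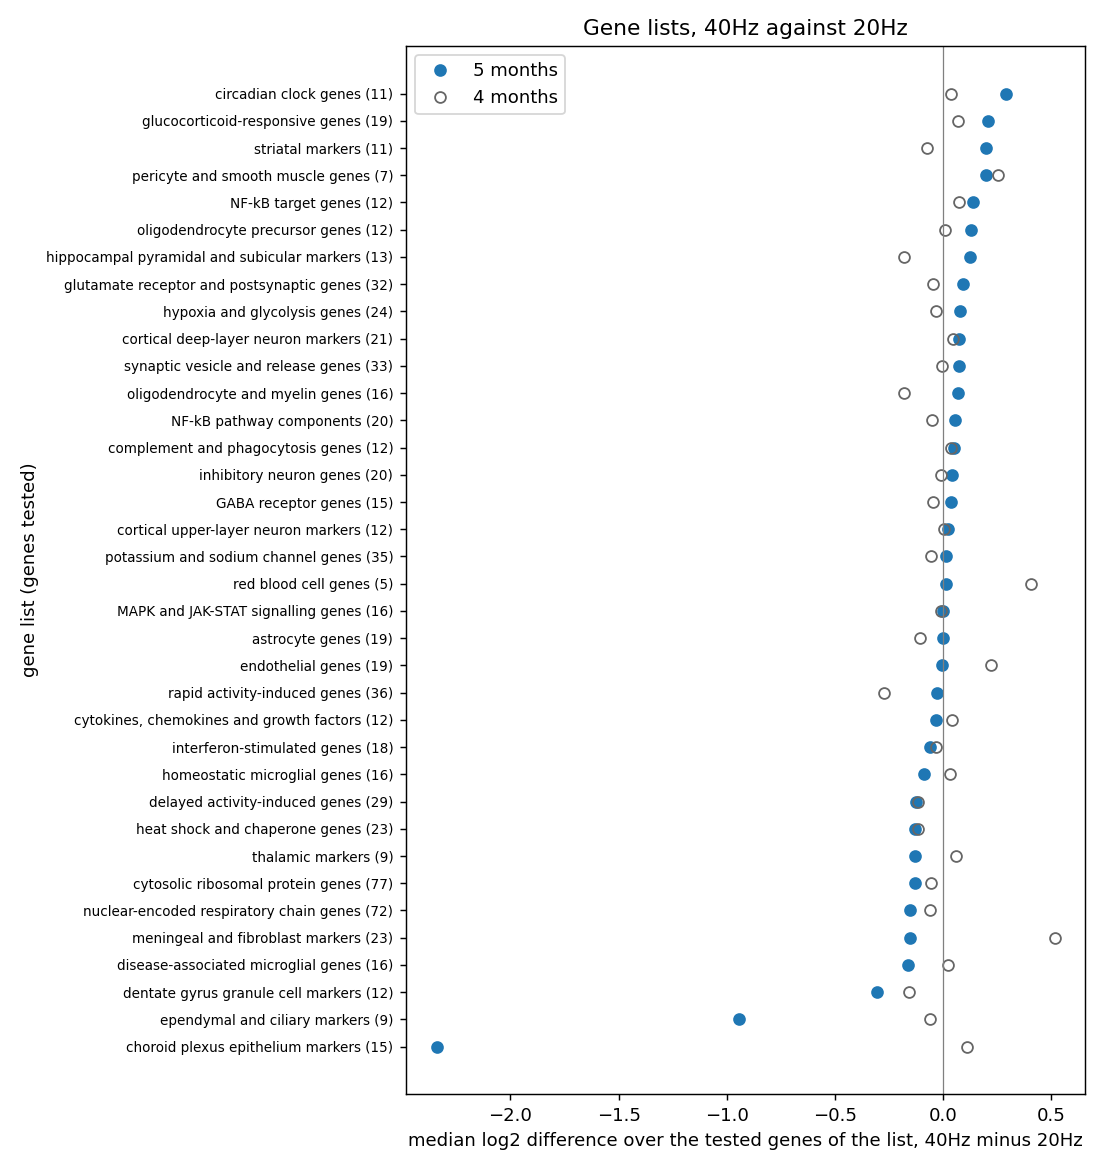
Median log2 difference of 40Hz minus 20Hz over the tested genes of each of the 36 lists, with filled circles for 5 months and open circles for 4 months. The choroid plexus and ependymal medians at 5 months, -2.34 and -0.95, stand far to the left of the others. Among the 5-month circles the clock median of 0.29 is the highest, and some 4-month circles lie further right.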

How the data were processed

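Per the series text and the labels, RNA of visual cortex was extracted with a column kit from 14 mice, of which 7 were 5 months old. The authors deposited 1 table of signal values for 12874 genes, which are normalized read counts. The submitters' processing notes name DESeq2 and the build GRCm39, with no version or role for either. For the aligner, the read counter and the strandedness: not given in the sources used here. In each sample 100% of values were whole multiples of the value of 1 read within 0.01 read, and the reads were recovered from that step. All columns were matched to samples by animal number, with 0 left over.

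The 2164 genes with a mean under 10 normalized counts over the 7 mice were left out. The frequencies were compared on the scale of log2(normalized count + 1), where changes of low genes are understated. The test was limma 3.58.1 (R 4.3.3) with its trend and robust options, adjusted by Benjamini-Hochberg with 0.05 as the threshold. The age difference came from 1 fit of 14 samples in 4 groups. On recovered reads, edgeR 4.0.16 (quasi-likelihood) and DESeq2 1.42.0 were alternatives. Scripts were tested on simulated data. Chi-square per degree of freedom was at least 10.8 between mice of a group, so none was a duplicate. The labels give separate animals and say nothing of litters or batches.

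Of 970 symbols on 36 lists, 716 were tested, and lists are described by counts and medians over tested members. Members and lists were chosen with earlier results of these data known. Genes were named by rule: the 10 of smallest p per direction, leaving out predicted genes, a panel of activity, immune, glial and tissue genes, the 3 members of smallest p in each list, 4 per direction for the age difference, and the 6 widest differences; a gene that the rule names is not reported here. Some are named outside it after their values were seen: C1ql2, Dsp, Foxj1, P2ry12, Cx3cl1, Mog, Ugt8a, Slc13a4, Cfap74, St6galnac2 and 1700007K13Rik. The precision at this depth was a median standard error of 0.335 for genes of 10 to 50 counts and 0.111 for those of 1000 and above.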

Additional observations from a re-analysis of the deposited data

Results flagged for a closer look

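Of 185 sets of 40Hz values examined, 11 (5.95%) had 1 mouse whose gap to the nearest other, as a share of the whole range, passed Dixon's critical value for 4 samples. Chance alone passes it in about 1 in 20 sets, and the 3 mice at 20Hz were too few to be examined this way.

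40Hz mouse 4 was the highest in Bspry, at 41.8 normalized counts, in Mif, at 3805, and in Sult1a1, at 286.5. It was the lowest in the mean of the cortical upper-layer markers, at -0.18 on the log2 scale from the mean of the 7 mice. 40Hz mouse 2 was the lowest in Jak2, at 392, in Cnp, at 1517, and in Tlcd5, at 7.11. It was the highest in Hba-a2, at 32.0, and in the mean of the interferon-stimulated genes, at 0.078 on that scale. 40Hz mouse 5 was the highest in Mbp, at 8335, and 40Hz mouse 3 in Grik1, at 49.3. In Cnp, Sult1a1, Bspry, Grik1 and Tlcd5 the mouse that stood apart still lay on its own group's side of every 20Hz mouse.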

How the results depend on the processing

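The count of genes called at 5 months, 0 in limma, was 12 in DESeq2, 84 without 20Hz mouse 2 and 40Hz mouse 4 (added after seeing the data), 0 to 1 when any 1 mouse was left out, 6 with a replicate block, and 0 under the other alternatives. The labels number the samples, but same-numbered mice did not deviate together (correlations of 0.06 and -0.09 for the 2 shared numbers), so the 6 calls of the replicate block rest on numbers that do not pair them. The 481 genes at an unadjusted p under 0.05 became 302 at a minimum mean of 50, 1621 with the choroid plexus level as a covariate, 1314 without 20Hz mice 1 and 2, where the lone 20Hz mouse is assumed to vary like the 40Hz group, 230 without 40Hz mice 2 and 3, 1630 without 20Hz mouse 2 and 40Hz mouse 4, and 293 to 1069 when 1 mouse was left out. For the age difference the 0 calls became 4 in DESeq2, 2 without 40Hz mice 2 and 3, and 0 to 2 when 1 mouse was left out. With the choroid plexus covariate the list medians were 0.17 for NF-kB components, -0.23 for cytokines, 0.048 for choroid plexus, -0.18 for ependymal, -0.38 for respiratory chain and -0.41 for ribosomal genes. Without 20Hz mice 1 and 2 they were -0.15 for cytokines, -0.12 for myelin, -0.37 for choroid plexus, -0.43 for ependymal, -0.32 for respiratory chain and -0.38 for ribosomal genes. Without 20Hz mouse 2 and 40Hz mouse 4 they were -0.17, -0.34 and -0.32 for cytokines, respiratory chain and ribosomal genes. At a minimum mean of 50 the NF-kB targets had a median of 0.0013, and the ependymal list gave no value. Leaving out 1 mouse moved the NF-kB targets between 0.030 and 0.161 and myelin between 0.016 and 0.317. The cause was not tested in any of these. Of 827 list medians under 23 alternatives each, 58 moved by more than the spread between mice. Of 3389 values of the 149 named genes, 100 had the other sign, 143 moved by more than that spread and 17 passed the threshold, and no called value changed sign. Standard errors, which hold the variation between mice as well as depth, had a median of 0.335 for genes of 10 to 50 counts and 0.111 for those of 1000 and above.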
